A study of Mus musculus with 8 samples.

Results

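Described here are 10 transcripts of fibroblast growth factor (FGF) signalling and of the feedback on the kinase ERK, which FGF receptors switch on. They were chosen by gene symbol: the ligand Fgf4, the receptors Fgfr1 and Fgfr2, the feedback inhibitors Spry2, Spry4, Spred1 and Dusp6, and the target genes Etv4, Etv5 and Egr1. All 10 were found among the 13558 transcripts measured by mRNA-seq in 8 libraries of mouse embryonic stem (mES) cells. Of these libraries, 4 came from Trim71 conditional cells (Trim fl/fl in the labels, called WT there and here) and 4 from mutant cells (Trim -/-, called KO). Both groups came from C57BL/6 male cells grown with serum (FCS) and LIF, a cytokine that keeps mES cells undifferentiated, and both were sorted for the surface antigen SSEA-1 before lysis. KO cells arose from the conditional cells by 500 nM 4-hydroxytamoxifen (4-OHT) for 2 days, with at least 7 further days in culture. These are the values of the labels, and the study's methods give a lower dose and a shorter further culture for the mES lines. Per those methods, the lines carried a tamoxifen-activated Cre from the Rosa26 locus, so WT cells held the same Cre. The vehicle control was the solvent DMSO. The labels give 4-OHT for KO libraries only, so loss of Trim71 cannot be told apart from 4-OHT exposure and Cre activation. The deletion takes exon 4 out of Trim71, so reads of the other exons can remain in KO cells. Clone E3 gave 5 libraries (3 KO, 2 WT) and clone 1 gave 3 (1 KO, 2 WT), so each genotype was seen in 2 clones and KO replicate 4 is the only KO library of clone 1. The labels do not say that replicates were separate cultures, so p-values measure only the spread between these libraries.

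FGF ligands bind receptor tyrosine kinases together with heparan sulphate, and the receptors act through adaptors, Ras and the RAF, MEK and ERK kinases. ERK activity raises transcription of early genes such as Egr1 and of the ETS factors Etv4 and Etv5, and also of Sprouty, Spred and dual-specificity phosphatase genes whose proteins dampen the same cascade. In mES cells the ligand is made by the cells themselves, and Fgf4 acting through ERK is known to move cells out of self-renewal towards lineage commitment, while primitive endoderm, the neighbouring lineage of the blastocyst, depends on FGF receptors.

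Promoter sequence of the 250 bases before the transcription start, from RefSeq on GRCm38.p6 (mm10), was read for 6 of the 10 genes, and 3 are shown because Dusp6 and Spry2 varied together across the libraries while Fgfr2 was lower in KO. Capitals mark AGGAAG or CGGAAG on either strand (read as CTTCCT or CTTCCG on the other), letters around the GGAA core that ETS factors bind. Each line runs 5′ to 3′ towards the start site. Dusp6 (chr10:99262981-99263230, plus strand) holds 2 matches, Fgfr2 (chr7:130266809-130267058, minus strand) holds 1, and Spry2 (chr14:105896820-105897069, minus strand) holds none.
Dusp6: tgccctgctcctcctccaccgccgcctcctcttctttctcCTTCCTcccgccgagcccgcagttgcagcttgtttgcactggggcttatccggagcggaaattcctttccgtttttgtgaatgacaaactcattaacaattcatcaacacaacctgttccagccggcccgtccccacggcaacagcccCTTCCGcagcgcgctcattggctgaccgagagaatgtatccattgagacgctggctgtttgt
Spry2: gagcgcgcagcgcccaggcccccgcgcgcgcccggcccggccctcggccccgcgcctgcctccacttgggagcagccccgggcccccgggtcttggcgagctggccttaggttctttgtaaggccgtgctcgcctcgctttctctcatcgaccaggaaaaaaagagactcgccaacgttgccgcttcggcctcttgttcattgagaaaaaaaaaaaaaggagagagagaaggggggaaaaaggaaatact
Fgfr2: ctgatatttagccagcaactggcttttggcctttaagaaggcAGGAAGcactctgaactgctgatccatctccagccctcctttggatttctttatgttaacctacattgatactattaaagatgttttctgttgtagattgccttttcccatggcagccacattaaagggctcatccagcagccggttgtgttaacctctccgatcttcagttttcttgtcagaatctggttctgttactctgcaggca
Among the other genes read, Spred1 held 1 match and Fgf4 and both starts of Etv5 none. Of 32817 promoters of this length, 39.2% held a match. A match is only these letters and was not tested as a binding site. The Fgfr2 stretch was 44.0% GC with 2 CpG sites, against 56.4% to 71.2% and 16 to 31 CpG sites in the promoters of the other 5 genes, and against medians of 52.4% and 6 over all promoters.

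The values are normalized read counts, from which the study had already subtracted a clone effect. Read totals recovered from them ranged from 7580394 (WT replicate 2) to 27982460 (WT replicate 3), and the 10 transcripts had 197 reads (Fgfr2 in KO replicate 4) to 15777 reads (Fgf4 in WT replicate 3). Trim71 itself, counted over the whole gene, ran from 247 to 793 in KO and from 1988 to 2782 in WT libraries, so every library matched its label. The markers of ES cells Pou5f1, Nanog and Sox2 were high in all 8 libraries, and 0 of 10 such markers had an unadjusted p under 0.05 in the limma fit of KO against WT.

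Across all 13558 transcripts, the limma fit with genotype and clone gave 0 transcripts with an adjusted p under 0.05, and 1232 (9.09%) with an unadjusted p under 0.05. The same test on whole reads recovered from the values (voom) gave 1262 unadjusted and 2 adjusted. Means are given ± SD over the 4 libraries of each group (n = 4). Below, "rose" and "fell" mean an unadjusted p under 0.05, and adjusted p is by Benjamini-Hochberg over all 13558 transcripts.

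KO libraries held less mRNA of the receptor Fgfr2 and more of the inhibitor Spry4 and the ETS factor Etv4 than WT libraries. These 3 of the 10 transcripts passed the unadjusted threshold, against 9.09% of all transcripts, and 0 of the 10 had an adjusted p under 0.05 in limma. The same 3 also passed the study's criterion of a fold change of at least 1.5, which 4.25% of all transcripts met. Counting by direction, 2 rose, against 4.62% of all transcripts, and 1 fell, against 4.46%. In 9 of the 10 the log2 fold change was above 0, with a median of 0.19 against -0.00036 over all transcripts. The KO and WT values did not overlap for Fgfr2 and Etv4, 2 of the 10, against 10.1% of all transcripts. In bulk RNA, fewer cells with a transcript and less of it per cell cannot be told apart.

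**Figure D1:**
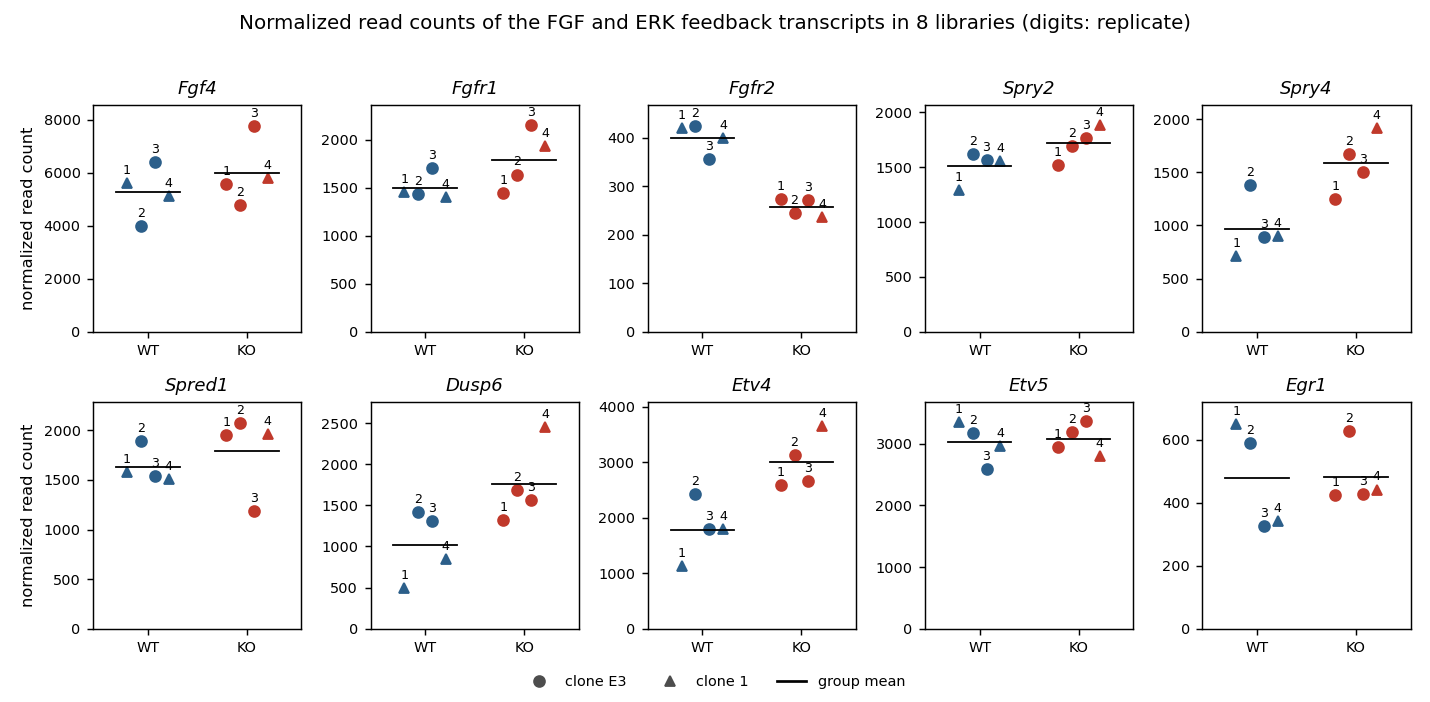
Normalized read counts (y axis, from 0) of the 10 transcripts in the 4 WT and 4 KO libraries, 1 panel for each gene, with the replicate number beside each point, circles for clone E3, triangles for clone 1 and a line at the group mean. Fgfr2 in KO libraries lay between 237 and 274, below every WT library, and KO replicate 4 was the highest library for Spry2, Spry4, Dusp6 and Etv4.

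Fgf4 (chr7:144861386-144865245, plus strand) encodes the main FGF ligand of the pluripotent cells. Its normalized read counts were 5580.3, 4801, 7751 and 5817 for KO replicates 1 to 4 and 5618, 3986, 6401 and 5109.6 for WT replicates 1 to 4. The groups overlapped, KO replicate 3 being the highest and WT replicate 2 the lowest of the 8. The means were 5987 ± 1253 in KO and 5278 ± 1012 in WT libraries, a difference smaller than the spread (log2 fold change 0.19, SE 0.21, unadjusted p = 0.404, adjusted p = 0.786, limma), with a 95% interval of -0.31 to 0.69.

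Fgfr1 (chr8:25518759-25575718, plus strand) encodes the receptor that epiblast and mES cells use most. It was read at 1447, 1639, 2154 and 1937 for KO replicates 1 to 4 and at 1454, 1440.3, 1704 and 1405 for WT replicates 1 to 4. KO replicates 3 and 4 lay above all WT libraries, and KO replicates 1 and 2 among them. The means were 1794 ± 314 in KO and 1501 ± 137 in WT libraries, which did not pass the test (log2 fold change 0.24, SE 0.16, unadjusted p = 0.179, adjusted p = 0.671, limma). RefSeq places 2 non-coding genes over Fgfr1, and without strand in the library kit reads where they overlap cannot be told from those of Fgfr1.

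Fgfr2 (chr7:130162451-130266808, minus strand) encodes the receptor that marks the primitive endoderm and trophoblast side of the blastocyst. Its values were 274, 244, 271 and 237 for KO replicates 1 to 4 and 421, 424, 355 and 399 for WT replicates 1 to 4. Every KO library lay under every WT library, with a gap from 274 to 355. Fgfr2 fell, with means of 257 ± 18.9 in KO and 399.7 ± 31.7 in WT libraries (log2 fold change -0.64, SE 0.12, unadjusted p = 0.000982, adjusted p = 0.367, limma). The exact two-sided permutation test over the 70 assignments of the libraries gave p = 0.0286, the smallest it can give. Those assignments take no account of clone, and wherever this smallest value is reached it only restates that the groups did not overlap. Fgfr2 was also the transcript with the fewest reads of the 10, 197 to 744 for each library. Counting error on the lowest of these was 170.4 to 227 reads (95% Poisson interval, counting error only).

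Spry2 (chr14:105891947-105896819, minus strand) and Spry4 encode Sprouty proteins, which hold back the step from receptors to Ras and RAF. Spry2 was at 1524, 1695, 1762 and 1888 for KO replicates 1 to 4 and at 1294, 1621, 1569 and 1555 for WT replicates 1 to 4. WT replicate 1 was the lowest library and KO replicate 4 the highest, and the other libraries lay close together. The means of 1717 ± 151 in KO and 1509.7 ± 147 in WT libraries did not pass the test (log2 fold change 0.18, SE 0.13, unadjusted p = 0.207, adjusted p = 0.685, limma).

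Spry4 was at 1245, 1677, 1500.5 and 1919 for KO replicates 1 to 4 and at 709.5, 1384, 892 and 899 for WT replicates 1 to 4. WT replicate 2 lay among the KO libraries, above KO replicate 1, and the other WT libraries lay below all KO libraries. Spry4 rose, with means of 1585 ± 284 in KO and 971 ± 289 in WT libraries (log2 fold change 0.71, SE 0.24, unadjusted p = 0.0221, adjusted p = 0.485, limma), and its exact two-sided permutation p was 0.0571.

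Spred1 (chr2:117121071-117182279, plus strand) encodes a Sprouty-related inhibitor of Ras that works with the Ras regulator neurofibromin. Its values were 1955, 2072, 1190.0 and 1965 for KO replicates 1 to 4 and 1582, 1892, 1536 and 1506 for WT replicates 1 to 4. KO replicate 3 was the lowest of the 8 libraries and the other KO libraries were the highest 3. The means were 1796 ± 407 in KO and 1629 ± 178 in WT libraries (log2 fold change 0.12, SE 0.21, unadjusted p = 0.603, adjusted p = 0.873, limma).

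Dusp6 (chr10:99263231-99267489, plus strand) encodes the cytoplasmic phosphatase that dephosphorylates ERK. Its values were 1319.8, 1681, 1566 and 2455 for KO replicates 1 to 4 and 492, 1424, 1309 and 843 for WT replicates 1 to 4. After the clone subtraction, KO replicate 4 stood far above the rest and WT replicate 1 far below, both from clone 1. The 5 libraries of clone E3 lay between 1309 and 1681. The means of 1755 ± 489.9 in KO and 1017 ± 431 in WT libraries gave the largest log2 fold change of the 10 but did not pass the test (log2 fold change 0.78, SE 0.37, unadjusted p = 0.0711, adjusted p = 0.580, limma). A non-coding gene overlaps Dusp6 in RefSeq and was not separated from it by strand.

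Etv4 (chr11:101769747-101785310, minus strand) and Etv5 (chr16:22381313-22439570, minus strand) encode ETS transcription factors of the PEA3 group, standard readouts of FGF signalling. Etv4 was at 2594, 3131, 2658 and 3658 for KO replicates 1 to 4 and at 1139, 2426, 1796 and 1789 for WT replicates 1 to 4. All KO libraries lay above all WT libraries, the closest being KO replicate 1 and WT replicate 2. Etv4 rose, with means of 3010.2 ± 494 in KO and 1788 ± 526 in WT libraries (log2 fold change 0.75, SE 0.25, unadjusted p = 0.0196, adjusted p = 0.483, limma), and its exact two-sided permutation p was 0.0286.

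Etv5, unlike its relative, did not pass the test. Its values were 2955, 3193, 3369 and 2805 for KO replicates 1 to 4 and 3350.2, 3178, 2593 and 2971 for WT replicates 1 to 4, and both groups covered nearly the same range. The means were 3080.4 ± 250.03 in KO and 3023 ± 326 in WT libraries (log2 fold change 0.031, SE 0.13, unadjusted p = 0.823, adjusted p = 0.948, limma), with a 95% interval of -0.28 to 0.34. That interval reaches a log2 fold change of 0.34 at most, below the value of 0.75 for Etv4. The 95% interval of Etv4 was 0.16 to 1.34, so the 2 intervals overlap. The difference between the genes was not tested.

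Egr1 encodes a zinc finger factor of the immediate early response. It was at 424, 629, 428 and 442 for KO replicates 1 to 4 and at 651, 589, 327 and 343 for WT replicates 1 to 4. WT replicates 1 and 2 were high and WT replicates 3 and 4 low, and 3 KO libraries lay between those pairs. The means of 481 ± 99.0 in KO and 477 ± 167 in WT libraries were nearly equal (log2 fold change 0.059, SE 0.29, unadjusted p = 0.845, adjusted p = 0.954, limma).

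The rises of Spry4 and Etv4 rested in part on the libraries of clone 1, and the difference of Dusp6 more so. Leaving out KO replicate 4 leaves clone 1 without a KO library, so with the clone term the difference then comes from clone E3 alone. The part of KO replicate 4 cannot be told apart there from that of WT replicates 1 and 4. Without KO replicate 4, the log2 fold changes became 0.40 for Spry4 (unadjusted p = 0.169), 0.42 for Etv4 (unadjusted p = 0.152) and 0.15 for Dusp6 (unadjusted p = 0.586), all from limma. Fgfr2 kept a log2 fold change of -0.56 (unadjusted p = 0.0115, limma) and was then the only 1 of the 10 under 0.05, against 3.26% of all transcripts. Without WT replicate 3 it was again the only 1, against 9.56% of all transcripts, with a log2 fold change of 0.64 for Spry4 (unadjusted p = 0.0737) and of 0.74 for Etv4 (unadjusted p = 0.0535, limma), close to those of all 8 libraries. Fgfr2 had an unadjusted p under 0.05 in all 20 settings tried, and Spry4 and Etv4 in 18 of 20.

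Within clone E3 (3 KO, 2 WT) the log2 difference of KO from WT was -0.56 for Fgfr2, 0.40 for Spry4, 0.42 for Etv4 and 0.15 for Dusp6. These are the values of the fit without KO replicate 4, given again, and not a second check. Within clone 1 (1 KO, 2 WT) it was -0.79, 1.26, 1.36 and 1.93 in the same order. Each of the 4 thus had 1 direction in both clones, with a wider difference in clone 1. For Dusp6 the genotype by clone term had an unadjusted p under 0.05 (1.78 log2 units, SE 0.44, unadjusted p = 0.00597, adjusted p = 0.833, limma). It was 1 of the 10 to do so, against 2.59% of all transcripts, and a difference between clones cannot be told apart from that 1 KO library of clone 1. The term had unadjusted p = 0.0674 for Etv4 and unadjusted p = 0.0869 for Spry4 (limma). With the clone correction undone, Dusp6 was at 2716 in KO replicate 4, against 1058 to 1419 in the other KO libraries. WT libraries were then at 754 to 1162, so KO replicate 4 stood apart before the correction too. WT replicate 1 was at 754, against 1048 to 1162 in the other WT libraries, and the correction lowered it to 492. KO replicate 4 was 2.46 times WT replicate 4 undone and 2.91 times as deposited, so the correction widened the difference within clone 1. The log2 fold change of Dusp6 was 0.68 undone, below 0.70 for Spry4 and 0.73 for Etv4 (limma).

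**Figure D2:**
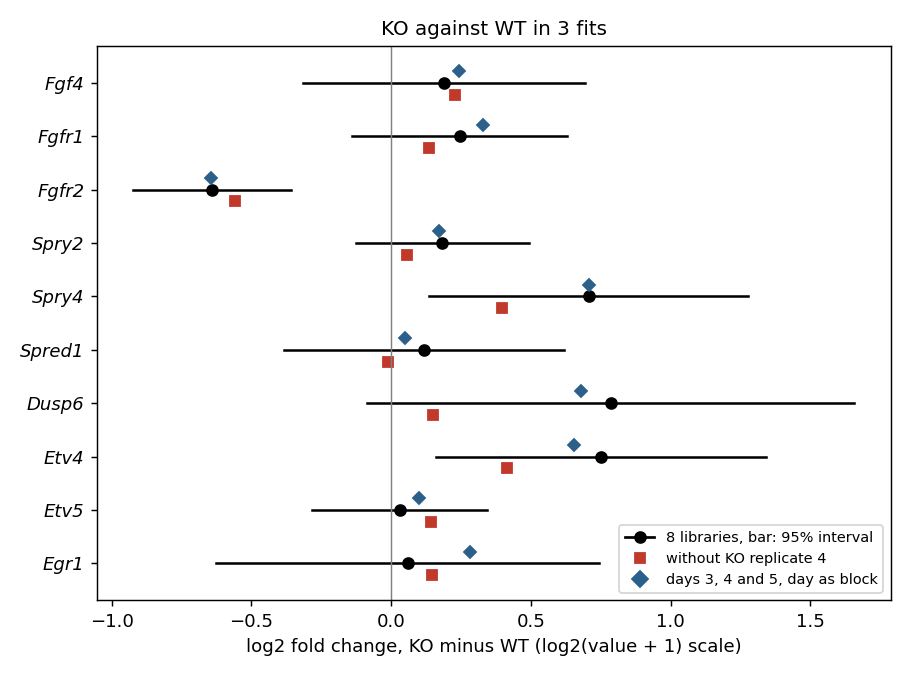
Log2 fold change of KO over WT for each transcript (x axis, log2(value + 1) scale) with its 95% interval over 8 libraries (black), without KO replicate 4 (red squares) and over the libraries of days 3, 4 and 5 with day as a block (blue diamonds). Fgfr2 lay at -0.64, -0.56 and -0.64 in the 3 fits, while Dusp6 moved from 0.78 to 0.15 without KO replicate 4. Without that library the difference comes from clone E3 alone.

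Every library is labelled with a day, and on days 3, 4 and 5 a KO and a WT library of 1 clone can be set side by side. Spry4 was 1.21, 1.68 and 2.13 times as high in KO as in WT on days 3, 4 and 5. For Etv4 the ratios were 1.29, 1.48 and 2.04, and for Dusp6 1.18, 1.20 and 2.91. In all 3 genes the excess was smallest on day 3 and widest on day 5, whose pair came from clone 1. Fgfr2 was lower in KO on each day, at ratios of 0.576, 0.763 and 0.594. Fgfr1 was higher on each day, at 1.14, 1.26 and 1.38, and so was Fgf4, at 1.20, 1.21 and 1.14. Spry2 and Egr1 were also higher on all 3 days, with ratios of 1.05, 1.12 and 1.21 for Spry2 and 1.07, 1.31 and 1.29 for Egr1. Spred1 and Etv5 were higher on 2 days and lower on 1. In all, 7 of the 10 were higher in KO on each day, against 24.6% of all transcripts.

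With day as a block, Fgfr1 joined Fgfr2, Spry4 and Etv4 under an unadjusted p of 0.05 (limma), so that 4 of 10 passed, against 19.2% of all transcripts. Fgfr1 then had a log2 fold change of 0.33 (SE 0.11, unadjusted p = 0.0343, adjusted p = 0.245, limma). The block on recovered reads (voom) put 8 of the 10 under 0.05, against 24.2% of all transcripts; the exceptions were Spred1 and Etv5. The smallest adjusted p of any of the 10 in any setting was 0.0817 (limma with voom weights).

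**Figure D3:**
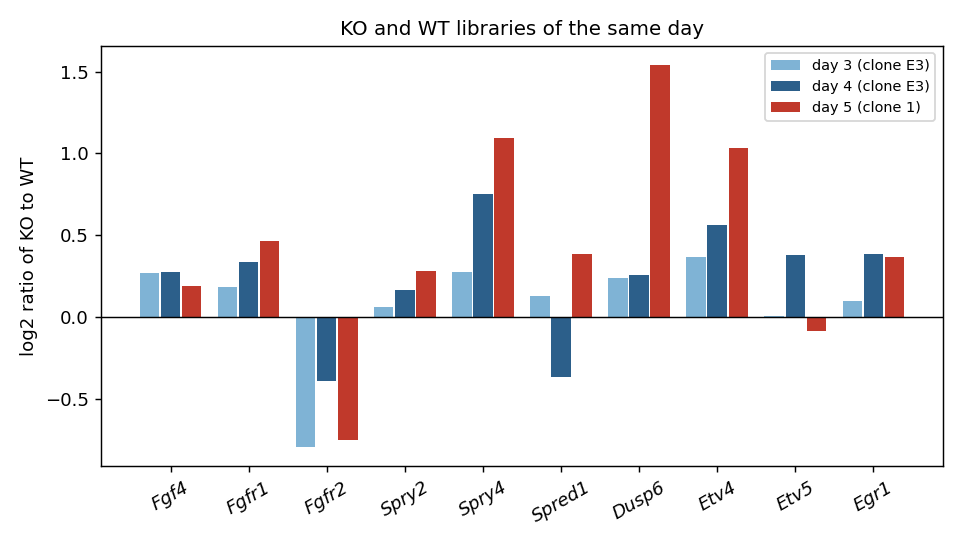
Log2 ratio of the KO to the WT library of the same day (y axis) for the 10 transcripts on days 3 and 4 (clone E3) and 5 (clone 1), 1 bar for each day and no error bar, as each is a pair of libraries. Bars of Fgfr2 pointed down on all 3 days, and the bar of Dusp6 on day 5 stood for a ratio of 2.91.

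Spry2, Spry4, Dusp6 and Etv4 varied together across the 8 libraries. Of the 45 pairs among the 10 transcripts, 6 had a Pearson's r with a permutation p, adjusted over the 45 pairs, under 0.05, and these were all 6 pairs that this quartet can form. With the clone correction undone 4 of them passed, and Spry2 with Spry4 and with Etv4 did not (r = 0.85 and 0.87, exact permutation p = 0.00657 and 0.00739, adjusted 0.0554 for both). These p-values treat the 8 libraries as exchangeable, with no term for genotype or for the day that libraries share. The closest was Spry4 with Etv4 (r = 0.97, Spearman's rho = 0.95, exact permutation p = 0.000149 and 0.00114, adjusted 0.00298 and 0.0171, n = 8). Dusp6 went with Etv4 at r = 0.95 and rho = 0.98 (exact permutation p = 0.000198 and 0.000397, adjusted 0.00298 and 0.00893). Dusp6 went with Spry4 at r = 0.91 and rho = 0.98 (exact permutation p = 7.44e-05 and 0.000397, adjusted 0.00298 and 0.00893). By rho, those 3 pairs alone passed the adjustment. In this quartet WT replicate 1 was the lowest and KO replicate 4 the highest library for every gene.

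Spry2 joined at r = 0.89 with Spry4 (rho = 0.88), 0.94 with Dusp6 (rho = 0.90) and 0.91 with Etv4 (rho = 0.83). The exact permutation p of r was 0.00181, 0.000769 and 0.00310 in that order (adjusted 0.0163, 0.00865 and 0.0233), and that of rho 0.00724, 0.00456 and 0.0154 (adjusted 0.0652, 0.0513 and 0.0989). WT replicate 1 and KO replicate 4 were the 2 libraries farthest from the median of Spry2 and of Dusp6. Without them, over 6 libraries, these r were 0.72, 0.65 and 0.59, so part of the relation of Spry2 rested on those libraries. Without the same 2 libraries, r was 0.97 for Spry4 with Etv4, 0.81 for Spry4 with Dusp6 and 0.79 for Dusp6 with Etv4. The libraries farthest from the median of Spry4 were WT replicates 1 and 3, and without them Spry4 had r = 0.98 with Dusp6 and 0.97 with Etv4. With each genotype centred on its own mean, the r of the 6 pairs were 0.83 to 0.93. Of these, 4 passed the adjustment by r and 0 by rho (exact permutation tests, unadjusted p under 0.05 for all 6 by either measure). In that setting 1 pair outside the quartet also passed by r, Fgf4 with Spred1. It had r = -0.84 and rho = -0.79 (exact permutation p = 0.00191 and 0.0279, adjusted 0.0215 and 0.180). Within clone E3 there are 5 libraries and within clone 1 there are 3, too few for an r within a clone.

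Over all 8 libraries Fgfr2 ran against the quartet, at r = -0.82 with Etv4 and -0.75 with Dusp6 (rho = -0.86 and -0.76). The exact permutation p of r was 0.0110 and 0.0124 and that of rho 0.0107 and 0.0368, and none passed the adjustment over 45 pairs (adjusted 0.0698 for both r, 0.0804 and 0.184 for rho). With each genotype centred on its own mean, r was -0.35 with Etv4, -0.21 with Spry4, -0.54 with Dusp6 and -0.49 with Spry2 (exact permutation p of 0.172 to 0.623), so much of the relation is the difference between the groups already given. With the clone correction undone, r was -0.67 with Etv4 and -0.55 with Dusp6 (exact permutation p = 0.0733 and 0.150). For Etv5 and Egr1 the relation to the quartet turned on WT replicate 1 and KO replicate 4. Over all 8 libraries Etv5 had r of -0.33 to 0.043 with the 4 genes and Egr1 had r of -0.23 to 0.16, with exact permutation p of 0.431 to 0.963. Without those 2 libraries, r was 0.40 to 0.82 for Etv5 and 0.48 to 0.87 for Egr1, with Spry4 the closest to both (no test). Over all 8 with each genotype centred on its own mean, r was -0.55 to -0.085 for Etv5 and -0.35 to 0.16 for Egr1 (exact permutation p of 0.157 to 0.843). Etv5 and Egr1 had r = 0.71 and rho = 0.62 with each other over all 8 (exact permutation p = 0.0532 and 0.115, adjusted 0.171 and 0.370).

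**Figure D4:**
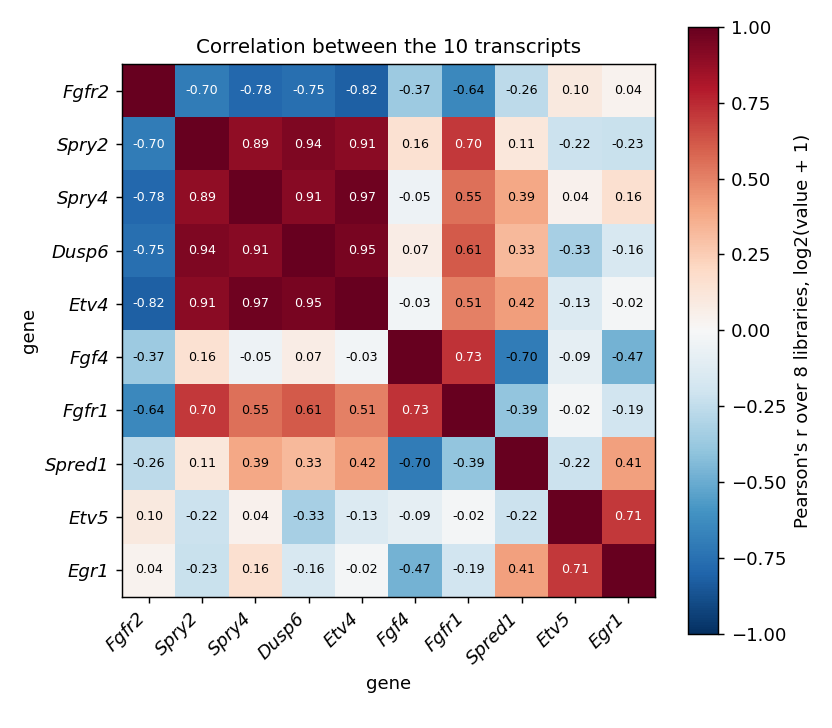
Pearson's r over the 8 libraries between each pair of the 10 transcripts, on log2(value + 1), from blue (−1) to red (1), with genes on both axes. The red block holds Spry2, Spry4, Dusp6 and Etv4 with r of 0.89 to 0.97, and the first line shows Fgfr2 against them at -0.82 to -0.70.

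Of all transcripts, those whose pattern over the 8 libraries was most like that of Etv4 were Gbx2 (r = 0.99), Lmna (r = 0.99) and Slc52a3 (r = 0.99). Those most like Spry4 were Epas1 (r = 0.99), again Gbx2 (r = 0.98) and F2rl1 (r = 0.98). Gbx2, a homeobox factor, had means of 843 in KO and 407 in WT libraries. For Fgfr2 they were Gnb4 (r = 0.99), Taf5 (r = 0.98) and Sytl3 (r = 0.97). These are the highest r over the whole table and carry no test. Gnb4, a G protein subunit, had means of 108 in KO and 182 in WT libraries.

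Levels were compared between the genes only per kilobase of transcript, as the median normalized count per kilobase over the 4 WT libraries. Fgf4 was the most abundant at 1770.2 (1315 to 2112), above every other gene in every WT library. Etv5 (773), Etv4 (749) and Spry2 (748) followed and overlapped each other. Dusp6 had a level of 385 and a wide range, 176 to 509, which reached into that of Etv4 (475 to 1013) and overlapped those of Fgfr1 (288), Spred1 (259) and Spry4 (188). Egr1 followed with a level of 153 (108 to 214), overlapping Spry4 (149 to 291). Fgfr2 was the least abundant at 95.03 (82.4 to 98.4), below Egr1 in every library. In KO libraries the median level of Etv4 was 1209 per kilobase, above that of Etv5 at 773, and that of Fgfr2 was 59.8.

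The rest of the pathway was read from lists of ligands, receptors and coreceptors, adaptors, kinases, inhibitors and targets, in which 88 further transcripts were measured. Of these, 11 had an unadjusted p under 0.05 in limma, beside 9.09% of all transcripts, and 0 an adjusted p under 0.05. By direction, 4.62% of all transcripts rose and 4.46% fell, and with day as a block 9.92% rose and 9.26% fell. The directions within a list were not tested. Among 11 ligands and ligand-binding proteins, 0 rose and 1 fell, the intestinal hormone Fgf15 (mean 7.25 ± 2.89 in KO against 14.8 ± 2.77 in WT, unadjusted p = 0.00900 in limma). With day as a block, 5 of the 11 rose and 0 fell. The median log2 fold change of that list was 0.39, and 0.40 with the block. Among 20 receptors and coreceptors, 0 rose and 2 fell, Fgfr2 and the heparan sulphate carrier Gpc3 (mean 371 ± 49.9 in KO against 627 ± 204 in WT, log2 fold change -0.73, unadjusted p = 0.0228 in limma), with a median of 0.063. With day as a block, 4 rose, Fgfr1, Fgfr3, Fgfr4 and Ndst1, and 2 fell, again Fgfr2 and Gpc3. The other receptors Fgfr3 and Fgfr4 had means of 75.1 and 90.6 in KO against 54.9 and 54.3 in WT libraries (unadjusted p = 0.128 and 0.0514, and with the block 0.00521 and 0.00418, limma). They and Ndst1, an enzyme of heparan sulphate synthesis, were named after their values were seen. Sdc4 had the highest WT level of the list, 1056 per kilobase.

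From the receptor to ERK and the RSK kinases that ERK activates, calls with all 8 libraries were found among the kinases but not the adaptors. Of 14 adaptors and Ras regulators, 0 rose and 0 fell in limma at an unadjusted p under 0.05, and with day as a block 1 rose, Frs3 (named after its values were seen). Gab1 had the highest WT level of these, 1034 per kilobase, and the median log2 fold change was -0.070. Of 14 Ras, RAF, MEK, ERK and RSK transcripts, Hras rose (mean 1077 ± 57.8 in KO against 872 ± 88.8 in WT, log2 fold change 0.31, unadjusted p = 0.0396 in limma). The scaffold Ksr1 fell (mean 193 ± 58.5 in KO against 317 ± 29.6 in WT, log2 fold change -0.76, unadjusted p = 0.0109), and so did the ERK-activated kinase Rps6ka3 (mean 416 ± 85.2 in KO against 587 ± 39.1 in WT, log2 fold change -0.52, unadjusted p = 0.0232), so 1 of the 14 rose and 2 fell. With day as a block 2 rose and 3 fell. Map2k1, which encodes a MEK kinase, had the highest WT level per kilobase, 1066, and the list's median log2 fold change was -0.047.

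In the lists of feedback inhibitors, ERK target factors and immediate early genes, the transcripts called with all 8 libraries were higher in KO. Rps6ka3, listed with the kinases but also downstream of ERK, fell as given above. Of 15 feedback inhibitors, 3 rose and 0 fell: Spry4 and the phosphatases Dusp1 (mean 969 ± 81.0 in KO against 666 ± 138 in WT, log2 fold change 0.55, unadjusted p = 0.0230 in limma) and Dusp14 (mean 351 ± 16.3 in KO against 284 ± 32.9 in WT, log2 fold change 0.31, unadjusted p = 0.0426). Dusp9 had the highest WT level of that list, 906 per kilobase. Of 17 transcription factors downstream of ERK, 3 rose and 0 fell: Etv4, Elk3 (mean 243 ± 40.4 in KO against 155 ± 43.7 in WT, log2 fold change 0.65, unadjusted p = 0.0436) and Fosb. Fosb was scarce, at 6.24 to 15.6 in KO and 1.00, the floor of the values, to 8.37 in WT libraries (unadjusted p = 0.0407, limma). Of 15 immediate early genes, 4 rose and 0 fell, Fosb and Dusp1 again with the nuclear receptor Nr4a1 (mean 788 ± 85.4 in KO against 526 ± 80.9 in WT, log2 fold change 0.57, unadjusted p = 0.00839) and the growth arrest gene Btg2 (mean 1897 ± 532 in KO against 1088 ± 388 in WT, log2 fold change 0.80, unadjusted p = 0.0451). Ier2 had their highest WT level, 719 per kilobase. The median log2 fold change was 0.24 for the inhibitors, 0.46 for the factors and 0.46 for the immediate early genes, whose 15 log2 fold changes were all above 0 in this fit. Of those 15, 12 were above 0 without KO replicate 4, where Klf6, Cyr61 and Ctgf were below, and 12 with day as a block, where Ier3, Klf6 and Ctgf were below (named after their values were seen). Without KO replicate 4 the medians were 0.14, 0.30 and 0.35. With the block, 4 inhibitors rose and 0 fell, 5 factors rose and 1 fell, and 7 immediate early genes rose and 0 fell. The lists share genes, and all were chosen with earlier results of these data known, so these directions are not independent evidence. Without KO replicate 4, where the difference comes from clone E3 alone, none of the 11 kept an unadjusted p under 0.05 in limma. The share of all transcripts fell to 3.26%, and 1 other of the 88, Fgf17, then passed (unadjusted p = 0.0438, limma). All 11 kept their direction, with log2 fold changes such as -0.67 for Ksr1, -0.61 for Gpc3, -0.47 for Rps6ka3 and 0.28 for Hras, the 4 that kept over 0.8 of their size, and 0.38 for Fosb, which kept least. Without WT replicate 1 the count was 7 instead of 11.

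**Figure D5:**
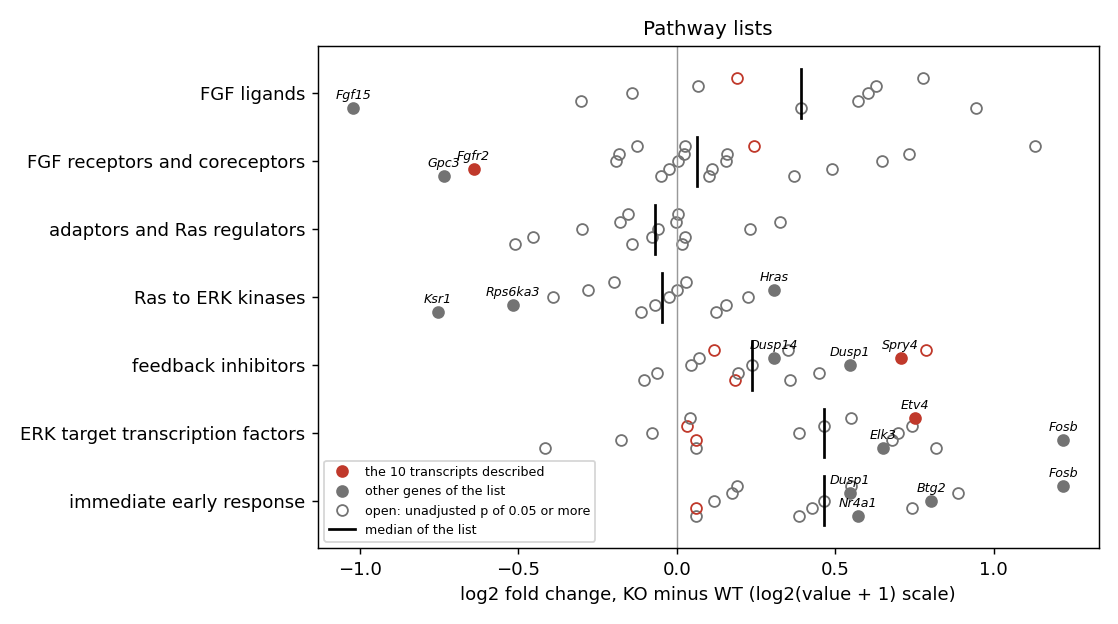
Log2 fold change of KO over WT (x axis) for every measured transcript of 7 pathway lists (y axis), red for the 10 transcripts described, grey for the others, filled and named where the unadjusted p was under 0.05, with a bar at the median of each list. The medians of the adaptors and the kinases lay near 0 (-0.070 and -0.047), and those of the factors and immediate early genes at 0.46.

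The libraries at both ends of the quartet were also at the ends for primitive endoderm markers. The summed count of 8 such markers was 7598 in WT replicate 1, the lowest library, and 16764 in KO replicate 4, the highest, as for Spry2, Spry4, Dusp6 and Etv4, and the ranges were 12349 to 16764 in KO and 7598 to 13066 in WT libraries. Sparc and Lama1 made up 96.6% to 98.9% of that sum. Its factors Gata6, Sox17 and Foxa2 were at the floor of 1 in WT replicate 1, Foxa2 also in WT replicate 4. In KO replicate 4 they reached 125, 40.9 and 24.6. These values follow the clone subtraction, after which any value under 1 was set to 1. WT replicates 1 and 4 share clone 1 with KO replicate 4, so a floor value need not mean a library without reads. The markers Dab2 and Pdgfra had lower means in KO, 88.3 against 118 for Dab2 and 29.5 against 42.4 for Pdgfra. None of the 8 had an unadjusted p under 0.05 in limma. With day as a block, 0 rose and 2 fell, Dab2 and Pdgfra (unadjusted p = 0.0288 and 0.00711, limma). The median log2 fold change of the 8 was 0.95 with all libraries and -0.0081 without KO replicate 4, where the difference comes from clone E3 alone. Its size thus rested on clone 1, where KO replicate 4 cannot be told apart from WT replicates 1 and 4. The part of the 8 markers in the values of the quartet was not tested. Other marker lists had few calls at an unadjusted p under 0.05 in limma: 0 of 5 for fibroblasts, 0 of 5 for formative or primed epiblast, 1 of 4 for mesoderm (Eomes, higher in KO) and 1 of 5 for neural cells (Nes, lower in KO). The summed fibroblast count was 6033 to 15075 in KO and 8289 to 16524 in WT libraries, most of it Fn1, which other cells make too.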

How the data were processed

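Libraries were made with a poly(A) kit that does not mark strand. Per the study's methods and processing notes, the authors called bases with CASAVA 1.8, aligned reads to mm10 with Bowtie2 2.2.1 through TopHat2, counted reads per RefSeq transcript in Partek 6.6, normalized them with DESeq2, corrected for batch, set values under 1 to 1 and dropped transcripts whose higher group mean was under 10. What they deposited is a normalized signal, in normalized reads, and all 8 sample columns were used. An additive clone effect had been subtracted. It was undone by searching, for each transcript, the whole reads that with 1 scale for every library and 1 clone shift return its values, with unique reads for 13529 of 13558 transcripts (99.8%), and 100% of their values were given back within a unit of the last of 6 digits printed.

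KO and WT were compared by limma 3.58.1 (R 4.3.3) in a model of genotype plus clone on log2(value + 1), adjusted by Benjamini-Hochberg over all transcripts. Fold changes are on that scale, which understates changes of low transcripts. Other steps used scipy 1.17.1, pandas 2.3.3, matplotlib 3.10.9 and numpy 2.4.6 in Python 3.11.15. The fit and the read recovery were also run on simulated counts, drawn independently for each library with no clone or day effect. That run does not check the fit where libraries share a clone or a day. Libraries of days 3, 4 and 5 were blocked by the day in their labels. With the correction undone, deviations from the group means correlated at 0.54, 0.63 and 0.52 within these days, against a median of -0.18 over 13 pairs of different days. As deposited, which is what the limma block was fitted on, the same correlations were 0.42, 0.54 and -0.23, against 0.050, so the pair of day 5 did not deviate together there. The block was also fitted with the correction undone.

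The members and all lists were chosen with earlier results of these data known. Genes named are the members, list genes with an unadjusted p under 0.05, the most abundant WT transcript per length of each list, and the 3 transcripts most correlated with each member called. Lengths are the longest RefSeq-matched transcript in GENCODE vM21. Alternatives were another pseudocount, filters, no clone term, the day block, the correction undone, voom on recovered reads and leaving out each library.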

Additional observations from a re-analysis of the deposited data

Results flagged for a closer look

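The values of 3 transcripts had 1 library far from the other 3 of its group by Dixon's test. Fgfr1 stood at 1704 in WT replicate 3, against 1405 to 1454 in the other WT libraries. Spred1 stood at 1190.0 in KO replicate 3, against 1955 to 2072 in the other KO libraries, and its log2 fold change without that library was 0.28. Egr1 stood at 629 in KO replicate 2, against 424 to 442 in the other KO libraries. Of 20 groups of 4 libraries looked at, chance gives about 1 in 20, that is 1, and 3 were found. All 3 rest on values after the clone subtraction. With it undone, Fgfr1 in WT replicate 3 was 1678, against 1414 to 1480 in the other WT libraries. Spred1 in KO replicate 3 was then 1230, against 1926 to 2112, and Egr1 in KO replicate 2 was 683, against 388 to 483. In each of these 3 groups, the gap to the nearest library was then a smaller part of the group's range. That part was under the limit of Dixon's test for 4 values. The 3 flags thus hold only for the values after the subtraction.

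For Dusp6 the log2 difference of KO from WT was wider in clone 1 than in clone E3, by 1.78 log2 units (genotype by clone term, limma, unadjusted p = 0.00597, adjusted p = 0.833). The unadjusted p of that term picked it out. KO replicate 4 is the only KO library of clone 1, so the clone and this library cannot be told apart.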

How the results depend on the processing

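Of 190 log2 fold changes of the 10 transcripts under 19 alternatives, 169 kept their direction and side of an unadjusted p of 0.05, and the other 21 moved across it (10 gained, 4 lost) or reversed (7). The reversals all came from leaving out 1 library, with log2 fold changes of -0.0036 to 0.36 for Fgf4 (below 0 without WT replicate 2), -0.013 to 0.28 for Spred1 (KO replicate 4), -0.082 to 0.14 for Etv5 (KO replicate 3 or WT replicate 3) and -0.19 to 0.26 for Egr1 (KO replicate 2, WT replicate 3 or WT replicate 4). None of these had passed the test. The 4 lost calls were those of Spry4 and Etv4 without KO replicate 4 or WT replicate 3. Leaving out each library gave 1 to 4 transcripts with an unadjusted p under 0.05 (1 without KO replicate 4 or WT replicate 3), 0 to 4 past the fold change criterion (1 without WT replicate 3, 0 without KO replicate 4, where Fgfr2 had an unadjusted p = 0.0115 but a smaller change), and 1 to 13 of the other pathway transcripts (11 with all libraries, 1 without KO replicate 4, 7 without WT replicate 1). The replicate block by day gave 4 of the 10 and 26 pathway transcripts, also 26 once the clone correction was undone, while voom on the reads gave 8 and 31. The same 6 libraries without the block gave 7 pathway transcripts, no clone term 18 and voom without the block 17. For most alternatives, the share of all transcripts under 0.05 is not given here. Where given, it ran from 3.26% (without KO replicate 4) to 24.2% (recovered reads blocked by day). A higher or lower count alone was therefore not shown to be a change in the pathway. The block changed no other call among the 10 than that of Fgfr1 in limma. Dusp6 passed with no clone term (unadjusted p = 0.0391), with voom (unadjusted p = 0.0310) and without WT replicate 2 (unadjusted p = 0.0492), all limma. For the clone difference, 2 transcripts instead of 1 passed on untransformed values, and 1 to 2 without single WT libraries (2 without WT replicate 3 or WT replicate 4). For the genotype by clone term, the share of all transcripts is given only for the limma fit on log2 values of all 8 libraries (2.59%). The causes were not tested. The day block with the correction undone, the correlations centred within genotype or without WT replicate 1 and KO replicate 4, and the list medians without KO replicate 4 or with the block were chosen after seeing the data. With the correction undone, 4 of the 45 correlations passed instead of 6. Depth limits Fgfr2 and Egr1 most, whose lowest libraries held 197 and 220 reads.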
